A study of Mus musculus with 5 samples.

Results

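The 9 genes described here encode brakes on phosphoinositide 3-kinase (PI3K) and mTOR signalling in T cells. They were chosen by name: Pik3ip1, Inpp5d, Inpp4b, Phlpp1, Ddit4, Sesn1, Sesn3, Tsc1 and Tsc22d3. All probe sets that the array's annotation assigns to one of these symbols alone were taken, which gave 21 of the 45037 probe sets and 9 of the 18193 named genes. Expression was measured on 5 arrays. The 3 activated samples were CD4+ T cells of TCR-transgenic SCID mice, whose T cell receptor recognises the MOPC315 myeloma and whose SCID background leaves almost no other T or B cells. They were sorted as CD4+ and GB113+ (GB113 is an antibody to the transgenic receptor), at a purity of at least 95%, from pooled axillary lymph nodes of 12 to 15 mice on day 8 after an injection of 100000 MOPC315 cells in 250 µl of Matrigel under the skin of the flank. The 2 naive samples were CD4+ T cells with the same receptor, from pooled lymph nodes of TCR-transgenic SCID mice without tumor cells, and were handled in the same way. All animals were adult, 7 to 12 weeks old, on a Balb/c background, and each sample came from an independent experiment on pooled mice. A group given Matrigel alone was not analysed here, so tumor cells and Matrigel cannot be told apart. For the naive samples no node site, number of mice or purity is given here. A difference in node site or purity therefore cannot be told apart from activation either.

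PI3K is switched on by the T cell receptor and by costimulation through Cd28 or Icos, and its lipid product recruits the kinase Akt to the membrane. Akt keeps FoxO transcription factors out of the nucleus and, by relieving the block that the Tsc1 and Tsc2 proteins place on the small GTPase Rheb, turns on mTOR complex 1, which drives growth. The brakes act at separate steps. The membrane protein of Pik3ip1 holds back PI3K itself, the phosphatases of Inpp5d (SHIP1) and Inpp4b degrade its lipid products, and that of Phlpp1 takes a phosphate off Akt. The proteins of Ddit4 (REDD1), Sesn1, Sesn3 and Tsc1 act further down, on mTOR complex 1. Tsc22d3 encodes GILZ, a glucocorticoid-induced leucine zipper protein, which despite its symbol is no part of the Tsc1 and Tsc2 complex.

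The genes did not move as a group. In activated cells Ddit4 was 2.06-fold and Sesn3 1.80-fold higher, and Tsc22d3 was 2.28-fold lower. The other 6 genes did not pass the test. Each gene was judged by its lead probe set, the one with the highest mean of log2(intensity + 16) over the 5 arrays. The test was limma's moderated test on those log2 values, with Benjamini-Hochberg adjustment over the 29240 probe sets that passed a filter on dim signals. A call needed an adjusted p under 0.05. Among the lead probe sets of all 12873 genes tested, 5.52% were called higher and 3.19% lower, 8.72% in all. Against that background stand 2 of 9 members called higher and 1 of 9 called lower. Counted by probe set, 3 of the 20 tested member probe sets were called higher and 2 lower, beside 4.8% and 2.94% of all probe sets tested. The median log2 difference of the members was -0.14, beside -0.03 for all lead probe sets. The 3 activated arrays lay wholly above both naive arrays for 2 of the 9 lead probe sets and wholly below for 3, beside 20.3% and 20.7% of all genes, 40.9% together. No test set the brakes against other genes. In sorted cell pools, fewer cells with a transcript and less of it per cell cannot be told apart.

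**Figure D1:**
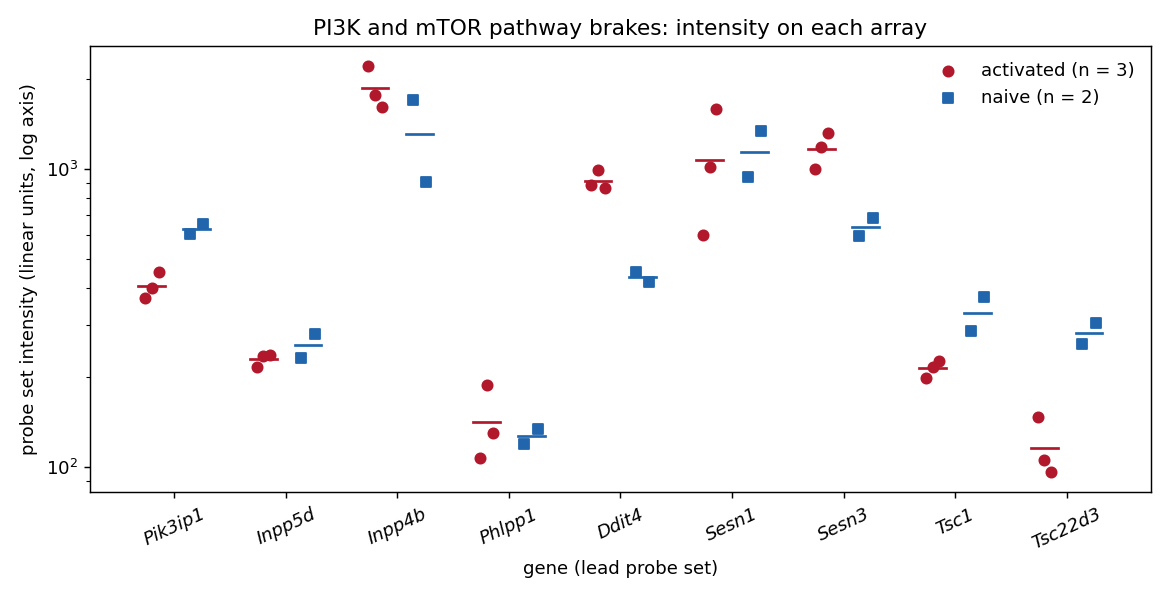
Intensity of the lead probe set of each of the 9 genes on every array (log axis). Red circles are the 3 activated arrays, blue squares the 2 naive arrays, and lines the group means. For Ddit4 and Sesn3 all activated arrays lie above both naive arrays, and for Pik3ip1, Tsc1 and Tsc22d3 all lie below. Heights of different genes cannot be compared, because each probe set has its own brightness.

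Promoters of the 3 called genes are shown because these are the members whose transcripts changed, and that of Sesn1 because it held the one FoxO motif among the members. Of the 3 Tsc22d3 promoters, only the one with a motif match is printed. Which start the measured Tsc22d3 transcripts use was not tested. They are taken from RefSeq, build GRCm38.p6, which gave 12 promoters for the 9 genes, each of 250 bases before to 50 bases after a start. They are printed on the gene's strand. Capitals mark matches, on either strand, to any of 4 motifs searched: TGTTTAC for FoxO factors, the glucocorticoid receptor half-site AGAACA, the E-box CACGTG bound by Myc, and the ATF4 motif TGATGNAA.
Ddit4 promoter, chr10:59951721-59952020, minus strand: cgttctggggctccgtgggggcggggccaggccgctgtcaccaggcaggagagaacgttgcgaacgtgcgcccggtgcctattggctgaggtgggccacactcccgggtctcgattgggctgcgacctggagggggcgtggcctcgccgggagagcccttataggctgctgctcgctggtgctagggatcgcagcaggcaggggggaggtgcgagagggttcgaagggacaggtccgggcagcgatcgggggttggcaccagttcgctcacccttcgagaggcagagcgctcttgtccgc
Sesn3 promoter, chr9:14276051-14276350, plus strand: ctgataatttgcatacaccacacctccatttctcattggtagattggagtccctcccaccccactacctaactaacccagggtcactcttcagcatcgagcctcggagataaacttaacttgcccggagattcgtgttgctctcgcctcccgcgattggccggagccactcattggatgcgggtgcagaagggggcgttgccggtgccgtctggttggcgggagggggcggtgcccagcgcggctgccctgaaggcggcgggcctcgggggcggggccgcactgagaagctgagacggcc
Tsc22d3 promoter, chrX:140600473-140600772, minus strand: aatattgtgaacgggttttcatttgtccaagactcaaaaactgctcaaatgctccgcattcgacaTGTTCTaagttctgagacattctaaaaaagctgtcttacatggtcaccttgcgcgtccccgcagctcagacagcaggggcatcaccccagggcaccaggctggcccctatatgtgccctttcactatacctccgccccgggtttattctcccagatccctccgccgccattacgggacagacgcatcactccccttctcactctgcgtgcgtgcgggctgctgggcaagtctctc
Sesn1 promoter, chr10:41810324-41810623, plus strand: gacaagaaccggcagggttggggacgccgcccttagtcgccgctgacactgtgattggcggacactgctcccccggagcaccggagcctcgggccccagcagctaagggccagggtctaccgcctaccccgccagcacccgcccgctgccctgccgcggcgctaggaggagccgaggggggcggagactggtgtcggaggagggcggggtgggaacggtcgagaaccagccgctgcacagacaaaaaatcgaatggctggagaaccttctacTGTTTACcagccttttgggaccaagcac
Among all 32851 RefSeq promoters of this length, 3.65% held the FoxO motif, 19.0% the glucocorticoid receptor half-site, 7.15% the E-box and 3.97% the ATF4 motif. Among the 12 member promoters there were 2 matches in all. One was the FoxO motif of the Sesn1 promoter shown, 22 bases after the start, in the gene with no call. The other was the half-site of one of the 3 Tsc22d3 promoters, whose first base lies at -185 from the start. The Ddit4 and Sesn3 windows shown held none of these letters. The Ddit4 promoter had 69.0% G and C with 26 CpG and the Sesn3 promoter 62.7% with 22, against medians of 52.7% and 7 CpG over all promoters.

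Ddit4, whose protein restrains mTOR complex 1 by way of the Tsc1 and Tsc2 complex and is induced by low oxygen and other stress, was called under every setting tried. Its single probe set, 1428306_at, read 882.4, 990.4 and 860.2 in activated cells, against 449.5 and 417.6 in naive cells. Every activated value was well above both naive values, with little spread within either group. The mean was 911 ± 69.7 (SD, n = 3) in activated cells and 433.6 ± 22.6 (SD, n = 2) in naive cells, and the log2 difference was 1.04 ± 0.16 (SE, adjusted p = 0.0037). The call was kept under each of 19 alternative settings, with log2 differences from 0.97 to 1.09.

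Sesn3 encodes a sestrin, a stress protein that restrains mTOR complex 1 and is a known FoxO target. Its lead probe set, 1449303_at, read 1000.2, 1185.0 and 1324.4 in activated cells, against 596.2 and 683.7 in naive cells. The groups did not overlap, and the log2 difference was 0.85 ± 0.18 (SE, adjusted p = 0.017). The second probe set, 1453313_at, read 2483.4, 1262.0 and 1134.2 in activated cells, against 446.3 and 263.3 in naive cells. Here too all activated values were above both naive values, and activated replicate 1 was by far the highest. The log2 difference was 2.10 ± 0.33 (SE, adjusted p = 0.0037), a 4.29-fold difference, against 1.80-fold on the lead probe set. Both rose, but the size depends on the probe set, and which part of the transcript each one reads is not given in the sources used here. On the lead probe set the call was lost without activated replicate 2 (0.83, adjusted p = 0.088), without naive replicate 1 (0.75, adjusted p = 0.085) and without naive replicate 2 (0.94, adjusted p = 0.052). On the second probe set it was kept on leaving out each array, and without activated replicate 1 the log2 difference was 1.75 (adjusted p = 0.0072). With both averaged it was 1.48 (adjusted p = 6.2e-04).

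The other sestrin, Sesn1, a p53-induced gene with the same kind of action, had 4 probe sets, none of which passed. The lead one, 1438931_s_at, read 599.5, 1013.3 and 1591.3 in activated cells, against 942.6 and 1338.3 in naive cells. The activated arrays spanned the naive ones on both sides, and the log2 difference was -0.18, with a 95% interval from -0.93 to 0.57 (adjusted p = 0.81). Probe set 1454699_at read 384.1, 456.6 and 598.0 in activated cells, against 316.0 and 395.4 in naive cells. Its groups overlapped by one array, at a log2 difference of 0.40 (interval -0.07 to 0.88, adjusted p = 0.31). The other two had log2 differences of 0.07 and -0.15. The intervals are wide, so Sesn1 is not shown to be unchanged.

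Tsc1, the partner that stabilises Tsc2 in the complex that shuts off Rheb, did not pass, although the groups did not overlap. Its lead probe set, 1455252_at, read 199.4, 216.8 and 226.2 in activated cells, against 285.0 and 372.7 in naive cells. The log2 difference was -0.57 ± 0.19 (SE, 95% interval -0.99 to -0.16, adjusted p = 0.097). The second probe set, 1439989_at, was dim, at 14.0, 8.9 and 18.9 in activated cells, against 27.2 and 30.1 in naive cells. It lay in the same direction, at -0.59 (adjusted p = 0.20). The third, 1422043_at, was at the level of the filter, with readings from 10.5 to 13.3 in activated cells, against 22.4 and 7.6 in naive cells.

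Tsc22d3 had lower readings on each of its 3 tested probe sets, of which 2 passed. The lead one, 1420772_a_at, read 146.8, 105.3 and 96.0 in activated cells, against 259.4 and 304.3 in naive cells. All activated values were below both naive values, and the log2 difference was -1.19 ± 0.21 (SE, adjusted p = 0.0078). Probe set 1425281_a_at read 127.1, 86.3 and 102.8 in activated cells, against 255.5 and 228.4 in naive cells. It fell by nearly the same amount, with a log2 difference of -1.10 ± 0.20 (SE, adjusted p = 0.0094). Probe set 1425557_x_at, whose suffix marks probes that may cross-hybridise, read 69.2, 55.6 and 78.1 in activated cells, against 89.4 and 91.0 in naive cells. That is a log2 difference of -0.35 (interval -0.82 to 0.11, adjusted p = 0.36). The fourth, 1444365_at, read at most 8.3 on any array and was not tested. The call of the lead probe set was lost without activated replicate 2 (-1.14, adjusted p = 0.05005) and without naive replicate 2 (-1.08, adjusted p = 0.057), and that of 1425281_a_at without activated replicate 2 (-0.98, adjusted p = 0.054). With its probe sets averaged, the log2 difference was -0.68 (adjusted p = 0.018).

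Of the members that act on PI3K or its lipid product, Pik3ip1 came closest to a call. Its lead probe set, 1428332_at, read 369.5, 398.2 and 449.3 in activated cells, against 604.5 and 654.2 in naive cells. The groups did not overlap, and the log2 difference was -0.62 ± 0.17 (SE, 95% interval -0.99 to -0.24), with an adjusted p of 0.054. Its second probe set, 1439087_a_at, read 384.4, 397.3 and 418.2 in activated cells, against 574.3 and 415.0 in naive cells. Only naive replicate 1 stood apart there, and the log2 difference was -0.28 (interval -0.69 to 0.13, adjusted p = 0.42). The lead probe set passed when only 1 probe set per gene entered the fit (-0.62, adjusted p = 0.034), with a filter at the 60th percentile (-0.62, adjusted p = 0.041) and with a split of the arrays by the bioC hybridisation control as a block (-0.59, adjusted p = 0.024), and under none of the other 16 settings.

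Inpp4b read 2211.9, 1774.7 and 1613.2 in activated cells, against 1709.4 and 903.3 in naive cells, on its lead probe set 1457359_at. Naive replicate 1 lay among the activated arrays and naive replicate 2 far below them, which gave a log2 difference of 0.57 (interval -0.003 to 1.14, adjusted p = 0.23). Without naive replicate 1 it was 1.02 (adjusted p = 0.031), and without naive replicate 2 it was 0.11 (adjusted p = 0.83), so a single naive array sets this value. The dimmer probe set 1441416_at read 109.5, 84.4 and 86.4 in activated cells, against 71.7 and 73.6 in naive cells, without overlap, at a log2 difference of 0.30 (adjusted p = 0.43). Inpp5d read 215.8, 235.6 and 237.3 in activated cells, against 232.7 and 279.6 in naive cells on its lead probe set, 1418110_a_at. The log2 difference was -0.14 (interval -0.54 to 0.25, adjusted p = 0.69), and that of the second probe set was 0.24 (interval -0.28 to 0.77, adjusted p = 0.60). These intervals leave out a 2-fold change of Inpp5d in either direction. Phlpp1 read 107.3, 187.9 and 129.9 in activated cells, against 119.3 and 133.8 in naive cells, which lay inside the activated range. Its log2 difference was 0.12 (interval -0.41 to 0.64, adjusted p = 0.83), and it was -0.09 without activated replicate 2, the array with the highest reading.

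**Figure D2:**
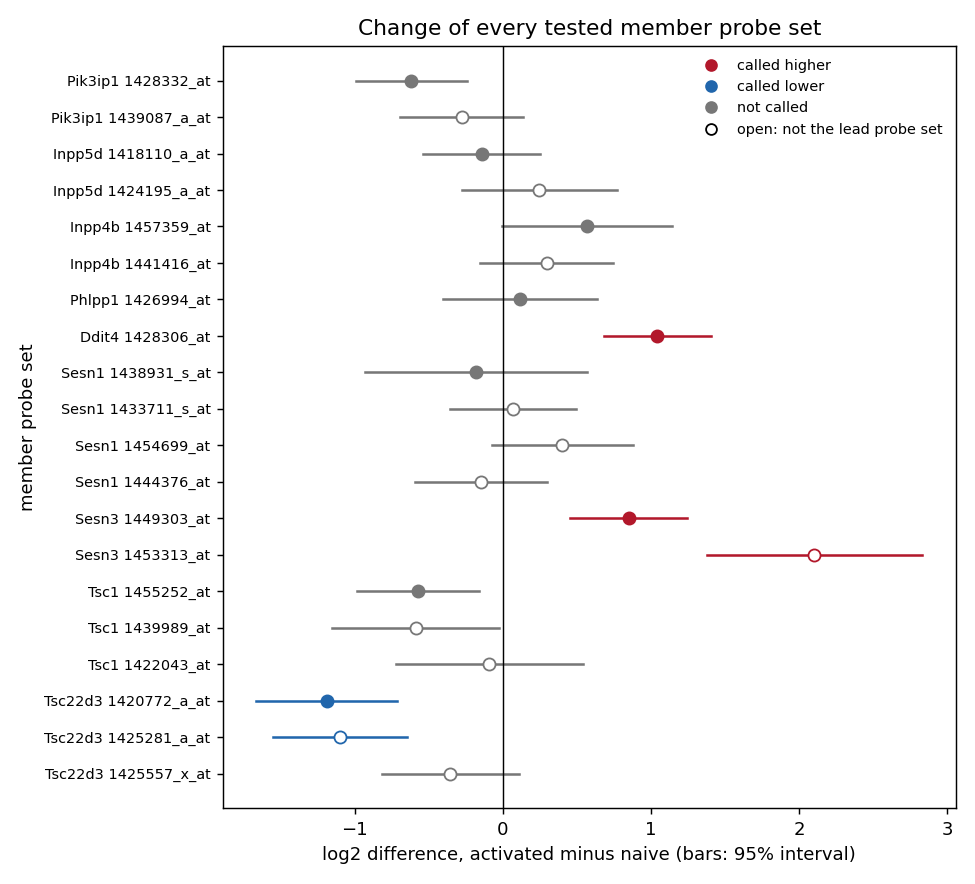
Log2 difference, activated minus naive, of the 20 member probe sets that were tested, with 95% intervals (bars, not adjusted for the number of tests). Filled points are lead probe sets, red marks calls higher and blue calls lower. Both Sesn3 probe sets lie above 0 with different sizes, 2 of the 3 Tsc22d3 probe sets were called lower, and Inpp5d and Sesn1 have probe sets on either side of 0.

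Several features of the arrays go with these values. Activated replicate 1, which had the highest reading of Inpp4b and of the second Sesn3 probe set, also had the highest sums of myeloid and NK cell markers. The sum of 12 measured myeloid markers was 5854.9 there and 2094.8 and 3057.6 on the other activated arrays, against 2358.6 and 2548.4 on the naive arrays. Much of each sum was Ctss, at 2209.9, 1909.8 and 2143.6 on activated arrays, against 1954.4 and 2322.6 on naive arrays. Lyz2 differed far more, at 1953.9, 35.8 and 353.6 on activated arrays, against 118.2 and 60.3 on naive arrays. Cd14 and Adgre1 were highest on activated replicate 3 instead. Of the 12, 10 passed the filter, with 0 called in limma's adjusted test. In limma's test 2 were higher at an unadjusted p under 0.05, beside 1572 of all 12873 lead probe sets. The sum of 8 NK cell markers was 4508.5 on activated replicate 1 and 1270.8 and 1290.8 on the other activated arrays, against 1187.8 and 1208.9 on the naive arrays. Of 7 tested, 2 were called higher, Klrk1 and Eomes. Of all lead probe sets tested, 5.52% were called higher and 3.19% lower, beside which the called counts of every marker list here stand. The sum of 10 T cell markers ran from 17701 to 19462 in activated cells, against from 17141 to 17177 in naive cells. Single T cell markers did change in limma's adjusted test. Of 10 tested, 2 were called higher, Cd5 at 1.85 (adjusted p = 2.5e-04) and Zap70 at 0.71 (adjusted p = 0.031). Thy1 was called lower, at -0.79 (adjusted p = 0.024). The 7 B cell markers, of which Cd22 was called higher, summed to at most 187.2 on any array. The 2 CD8 genes summed to between 271.2 and 405.7 on activated arrays and to 851.6 and 1040.3 on naive arrays. Most of this sum was Cd8b1, which was called lower. Cd8a overlapped between the groups, at 79.2, 24.4 and 18.7 on activated arrays, against 54.0 and 44.6 on naive arrays. It was not called in limma's test, at -0.35 (adjusted p = 0.65). The sum of 7 exocrine pancreas markers was 176.6 to 221.9 on activated arrays, against 288.2 and 265.9 on naive arrays. Of 5 tested, 2 were called lower, Ctrb1 and Cela3b, the direction of Tsc22d3. Without overlap of the groups 4 of the 5 were lower and 1 higher, beside 20.7% and 20.3% of all lead probe sets tested. The higher one, Prss2, read 131.1, 160.4 and 151.0 on activated arrays, against 97.2 and 82.5 on naive arrays. It was not called in limma's test, at 0.63 (adjusted p = 0.081). The sum of 7 stromal markers was 355.4 to 434.1 on activated arrays, against 252.7 and 223.3 on naive arrays, and 1 of 6 tested, Pecam1, was called higher. The sum of 6 plasma cell markers was 1118.8 to 1286.5 on activated arrays, against 1262.0 and 1380.3 on naive arrays, and 1 of 5 tested, Prdm1, was called lower. Most of this sum was Xbp1, at 1200.3, 1061.6 and 1172.4 on activated arrays, against 1116.2 and 1263.6 on naive arrays. Naive replicate 2, on which several calls rest, stood apart in some heat shock genes. Hspa1b read 117.5, 33.3 and 305.2 on the activated arrays, against 150.4 on naive replicate 1 and 2752.8 on naive replicate 2. Hsph1 did not set that array apart, at 627.1, against 777.7 on naive replicate 1 and 798.3, 414.9 and 312.4 on the activated arrays. The part of other cells and of heat shock genes in the results was not tested beyond leaving out each array. The arrays also fell into a high and a low set by the bioC hybridisation control, with activated replicates 1 and 2 and naive replicate 1 on the high side. The log2 difference within the high and the low side was 1.03 and 1.01 for Ddit4, 0.85 and 0.94 for Sesn3, -0.97 and -1.52 for Tsc22d3, and -0.63 and -0.53 for Pik3ip1. The groups of these 4 did not overlap, so their direction was bound to hold within each side. Of the members whose groups overlapped, Sesn1 lay at -0.27 and 0.25 and Phlpp1 at 0.23 and -0.04, with opposite directions on the 2 sides. Inpp5d, at -0.04 and -0.22, and Inpp4b, at 0.21 and 0.83, kept their direction.

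The other brakes were called about as often as all genes. Of 23 tested genes on a list of other brakes, 1 rose and 1 fell, beside 8.72% of all lead probe sets called, with a median log2 difference of -0.08. Tbc1d7, the third subunit of the Tsc complex, read 33.9, 63.2 and 58.1 in activated cells, against 2.8 on both naive arrays. The naive values lay below the filter, so the log2 difference of 1.82 (adjusted p = 0.0027) depends on the pseudocount: it was 3.75 with a pseudocount of 1 and 0.78 with 64. Trib3, a pseudokinase that binds Akt, read 17.0, 24.1 and 27.3 in activated cells, against 109.9 and 114.0 in naive cells, and fell by 1.73 on the log2 scale (adjusted p = 0.0011). Its log2 difference was -2.27 with a pseudocount of 1 and -1.02 with 64, and its lead probe set has the suffix for possible cross-hybridisation and is not tested when suffixed probe sets are left out. Tsc2 lay at 0.06 (interval -0.44 to 0.56, adjusted p = 0.91). The third sestrin gene, Sesn2, read 58.5, 46.2 and 35.0 in activated cells, against 6.0 and 28.1 in naive cells and did not pass, at 0.99 (adjusted p = 0.095), though it did without naive replicate 2, at 1.49 (adjusted p = 0.027). Without naive replicate 1 its log2 difference was 0.49 (adjusted p = 0.39).

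The signalling chain that the brakes act on had 3 genes called on one list and 1 on another, beside 8.72% of all lead probe sets. Of 19 tested genes from the PI3K subunits to Akt and their receptors, 1 rose and 2 fell, with a median of -0.02. Pik3r5, a regulatory subunit of the PI3K that G protein-coupled receptors engage, read 143.3, 89.0 and 104.0 in activated cells, against 507.1 and 587.2 in naive cells. It fell by 2.15 on the log2 scale (adjusted p = 2.8e-04), more than any of the 9 brakes. Sgk1, a kinase related to Akt, read 476.0, 732.9 and 805.6 in activated cells, against 1891.3 and 2004.0 in naive cells and fell by 1.55 (adjusted p = 0.0023). The costimulatory receptor Icos, which engages PI3K strongly, rose by 2.83 (adjusted p = 7.1e-04). Cd28 had a log2 difference of 0.60 on its lead probe set (adjusted p = 0.12) and of 1.32 on its other one, which passed (adjusted p = 7.4e-04). Of 22 tested genes of the mTOR complexes, Rag GTPases and their regulators, 0 rose and 1 fell in limma's adjusted test, with a median of -0.03. In limma's test 2 in each direction had an unadjusted p under 0.05, beside 1572 higher and 1396 lower of all 12873 lead probe sets. Mtor itself lay at -0.21 (interval -0.61 to 0.19, adjusted p = 0.54) and Rptor at -0.29 (adjusted p = 0.50). The faller was the Rag GTPase gene Rragd, at -1.01 (adjusted p = 0.022), a call lost without activated replicate 1, 2 or 3 (-0.98, -1.08 and -0.98), and without naive replicate 2 (-0.88). With the probe sets of Rragd averaged it was -0.29 (adjusted p = 0.45), and the call was also lost with no filter and with the replicate block.

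**Figure D3:**
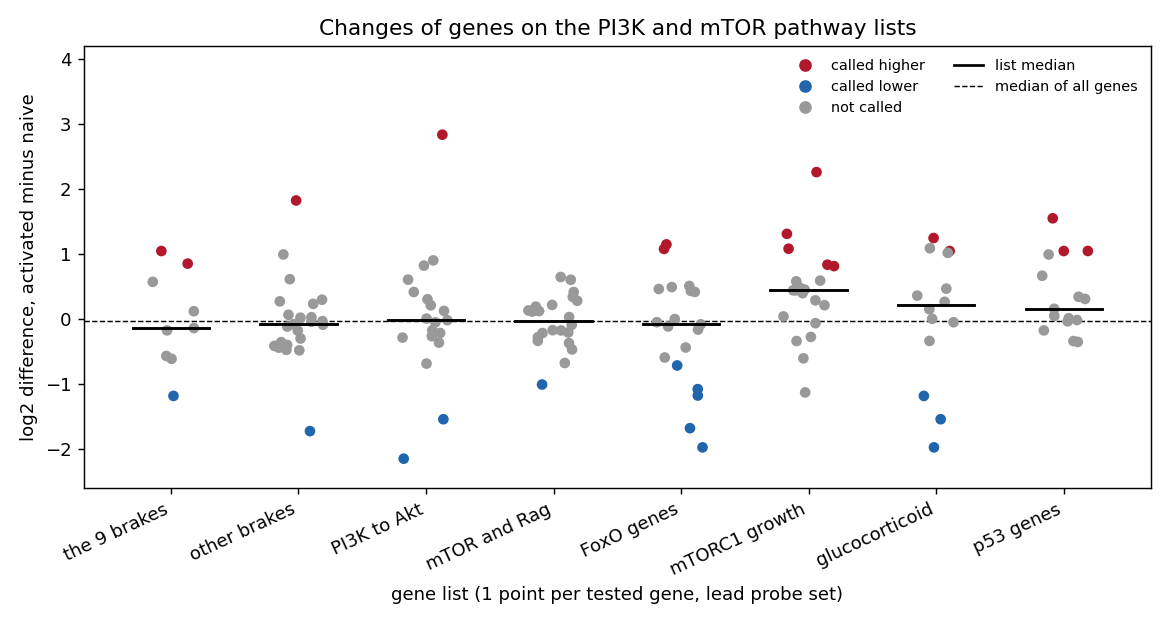
Log2 difference, activated minus naive, of each tested gene (lead probe set) on the list of 9 brakes and on 7 related lists. Red points were called higher and blue points lower, solid lines are list medians, and the dashed line is the median of all genes. Most points of each list were not called, and the list of mTOR complex 1 growth genes has the highest median, at 0.44.

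Genes associated with FoxO activity, which Akt opposes, moved both ways. Of 19 tested, 2 rose and 5 fell, beside 5.52% of all lead probe sets called higher and 3.19% lower, with a median of -0.09. Foxo1 fell by 0.72 on the log2 scale (adjusted p = 0.025), with 734.9, 732.5 and 641.5 in activated cells, against 1100.3 and 1235.4 in naive cells. Its call was lost on leaving out any one array, at log2 differences from -0.80 to -0.64, although its second probe set also passed, at -0.72 (adjusted p = 0.023). Klf2, a homing factor of naive T cells, fell by 1.69 (adjusted p = 7.6e-04) and the interleukin 7 receptor gene Il7r by 1.98 (adjusted p = 6.5e-04). In the other direction went the atypical cyclin gene Ccng2, which read 846.9, 972.1 and 1381.4 in activated cells, against 406.2 and 528.6 in naive cells. Its log2 difference of 1.14 (adjusted p = 0.013) lost the call without activated replicate 2 (1.20) and without naive replicate 1 (0.96). The autophagy gene Gabarapl1 was the second riser, at 1.07 (adjusted p = 0.040), a call lost without activated replicate 2 or 3 (0.87 and 1.07) and without naive replicate 1 or 2 (1.22 and 0.93). Klf2 and Il7r are genes that Foxo1 sustains in naive T cells.

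Growth genes associated with mTOR complex 1 that passed the test were all higher in activated cells in the fit to all 5 arrays. Of 20 tested, 5 rose and 0 fell in limma's adjusted test, beside 5.52% of all lead probe sets called higher and 3.19% lower. In limma's test 11 higher and 1 lower had an unadjusted p under 0.05, beside 1572 higher and 1396 lower of all 12873 lead probe sets. The median log2 difference was 0.44. The 5 called became 2 without activated replicate 2, 3 without naive replicate 1 and 3 without naive replicate 2. Genes called lower numbered 2 without naive replicate 1, and 1 without activated replicate 3, with 1 probe set per gene, with the replicate block and with the bioC split as a block. The hexokinase gene Hk2 read 95.0, 117.4 and 120.7 in activated cells, against 9.0 and 12.0 in naive cells. Its log2 difference of 2.26 (adjusted p = 2.2e-04) was 3.29 with a pseudocount of 1 and 1.23 with 64, since the naive values were dim. They lay near the filter, which was 13.4 on naive replicate 1 and 10.8 on naive replicate 2. The transferrin receptor gene Tfrc rose by 1.31 (adjusted p = 0.0019), with 557.2, 588.4 and 612.2 in activated cells, against 196.3 and 262.5 in naive cells.

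Tsc22d3 and Ddit4 are both known as glucocorticoid-induced genes, and they moved in opposite directions. Of 14 tested genes on the glucocorticoid list, 2 rose and 3 fell, beside 5.52% of all lead probe sets called higher and 3.19% lower. The median was 0.20. Beside Ddit4 the chemokine receptor gene Cxcr4 rose, by 1.24 (adjusted p = 0.0043), with 262.6, 260.9 and 210.8 in activated cells, against 81.5 and 107.5 in naive cells. Beside Tsc22d3 fell Il7r and Sgk1, which the lists above share. Ddit4 and Sesn1 also stand on the p53 list. Of its 15 tested genes 3 rose and 0 fell in limma's adjusted test, beside the same 5.52% and 3.19%, with a median of 0.15. At an unadjusted p under 0.05 in limma's test 5 were higher and 0 lower, beside 1572 and 1396 of all 12873 lead probe sets. The cell cycle inhibitor gene Cdkn1a read 81.3, 40.1 and 34.6 in activated cells, against 6.3 on both naive arrays and rose by 1.55 (adjusted p = 0.012), a value that was 2.76 with a pseudocount of 1 and 0.70 with 64. It lost the call without naive replicate 2, at 1.55 (adjusted p = 0.055), and with no filter. Pmaip1, which encodes the death inducer Noxa, rose by 1.04 (adjusted p = 0.022), and lost the call without activated replicate 1 or 2 (0.93 and 1.03) or naive replicate 1 or 2 (0.96 and 1.13).

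**Figure D4:**
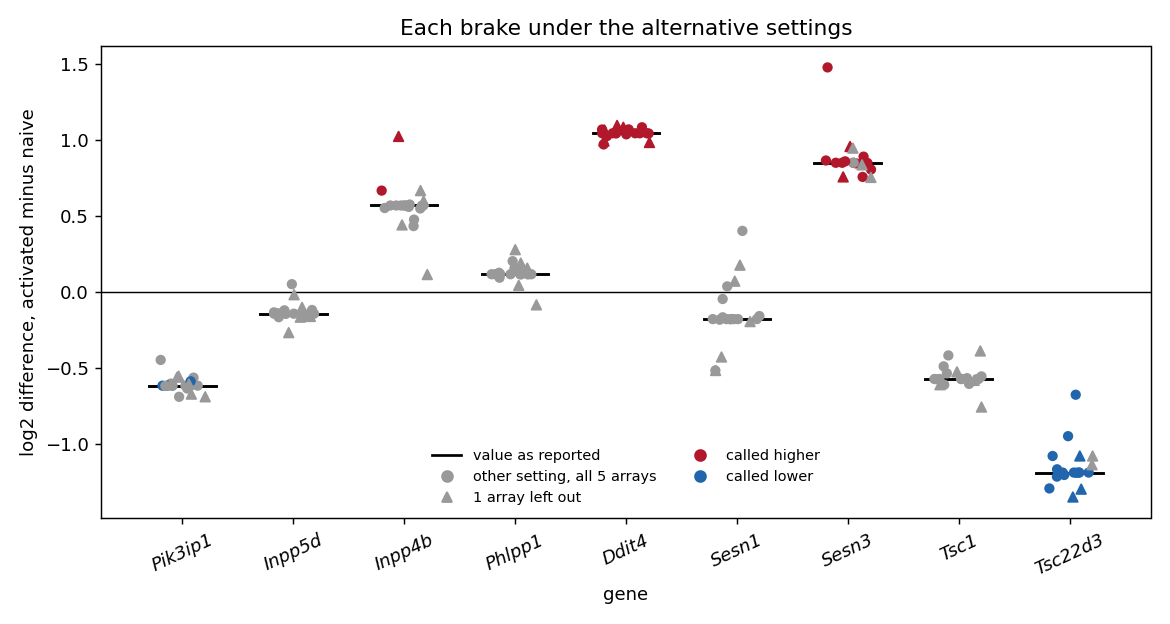
Log2 difference, activated minus naive, of each brake under the alternative settings. Black lines are the values as reported, circles other settings on all 5 arrays, triangles fits with 1 array left out, and red and blue mark calls. Ddit4 stayed between 0.97 and 1.09, Inpp4b ran from 0.11 to 1.02, and Sesn1 lay on both sides of 0.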

How the data were processed

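The 9 members and the gene lists were chosen with earlier results of these data known, so none is independent of them. RNA was isolated with Trizol, and 6 µg of it was turned into biotinylated cRNA for Affymetrix arrays, per the labels' protocols. The deposited table holds 1 linear intensity per probe set and array, for 45101 probe sets, 64 of them controls. How the probes were scanned and summarised, and whether they were called present, is not stated in these sources. The trimmed mean of each array was 100.0, as scaling to a common target would leave it, so changes are relative to the average probe set. Precision is limited by the number of arrays, 3 against 2.

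Symbols came from the array's GEO annotation: 34945 probe sets had 1 symbol, 932 several and 9160 none. All 9 members were found in RefSeq by Entrez ID. Values were taken as log2(intensity + 16), with no step between arrays, whose medians differed by 0.17. Probe sets above the 40th percentile of their array (10.5 to 13.4) on at least 2 arrays were tested, 29240 in all. Groups were compared two-sided in limma 3.58.1 under R 4.3.3 (lmFit, then eBayes with trend), with no other term in the model. Fold changes are on that log2 scale, which understates those of dim probe sets. All probe sets were fitted rather than 1 per gene because the members are defined by probe set. The code was tested on simulated arrays.

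Named in the text are all members, the 2 largest called rises and falls of each list, Foxo1, Mtor, Rptor, Tsc2, Sesn2, Cd28 and Klf2 whatever their result, and the 3 genes nearest in pattern to the members with the largest called rise and fall. Some cell type markers, and Hspa1a, Hspa1b, Hsph1 and Fos, are named outside that rule and were picked with their values known. Of 241 list entries, 18 had no probe set with 1 symbol of their own and were not analysed here. The alternatives were other normalizations, filters, pseudocounts, features and variance models, array weights, a block for the replicate number or for the bioC split, and fits without each array. The replicate number is shared by only 2 pairs, and no label ties it to a batch, so it was not taken as a pairing.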

Additional observations from a re-analysis of the deposited data

How the results depend on the processing

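Across all probe sets 1403 were called higher and 859 lower. These were 870 and 510 with no filter, 819 and 533 with 1 probe set per gene, 852 and 495 with each gene's probe sets averaged, and 723 to 1331 and 324 to 645 on leaving out 1 array, lowest without activated replicate 2. With the bioC split as a block, 1486 were lower. Of the members, 2 were called higher and 1 lower. The higher count was 1 with no trend and 1 to 2 on leaving out 1 array. The lower count was 2 with a filter at the 60th percentile, with 1 probe set per gene and with the bioC split as a block, 0 without suffixed probe sets, where Tsc22d3 and Inpp5d have no tested value, and 0 to 1 on leaving out 1 array. Over the related lists 14 genes were higher and 11 lower, and 9 to 13 and 8 to 15 on leaving out 1 array. Pik3ip1 passed with a filter at the 60th percentile (-0.62), with 1 probe set per gene (-0.62) and with the bioC split as a block (-0.59). Sesn3 lost its call with no trend, at 0.85, and ranged from 0.75 to 0.95 on leaving out 1 array, Tsc22d3 from -1.35 to -1.08, and Inpp4b from 0.11 to 1.02. The sign turned for Inpp5d with the mean of all probe sets (0.050), and for Sesn1 with the mean (0.036) and without suffixed probe sets (0.40). On leaving out 1 array it turned for Sesn1 (-0.52 to 0.17), Phlpp1 (-0.086 to 0.28), Tsc2 (-0.068 to 0.20), the second Inpp5d probe set (-0.041 to 0.53), Sesn1 probe set 1433711_s_at (-0.13 to 0.27) and Tsc1 probe set 1422043_at (-0.44 to 0.26). Mtor lay at 0.039 with the mean of its probe sets, and with the mean the calls of Foxo1 (-0.44), Ddit3 (-0.13), L1cam (-0.50) and Rreb1 (-0.51) were lost, while Cd28 passed (0.96) and Tbc1d7 lay at 0.88. With a pseudocount of 64 Gabarapl1 lost its call (0.61), as it did with no filter, with no trend, without suffixed probe sets (0.79) and with the replicate block. With the replicate number as a block, which leaves activated replicate 3 without a partner, Inpp4b passed (0.67, adjusted p = 0.0496), 3 members were higher and 1 lower, and Sesn1 probe set 1433711_s_at lay at -0.017. The differences between replicates 1 and 2 correlated at 0.04 between the groups across probe sets, which gives no sign of pairing. No other member call changed under the block. The causes of these changes were not tested, beyond the fewer arrays or probe sets each setting holds.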

Other observations

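The genes whose pattern over the 5 arrays lay nearest to that of Ddit4 were Dbi, Tbc1d2b and Lysmd2, at root mean square distances of 0.034, 0.045 and 0.057 on the log2 scale after centring each gene on its own mean. Dbi, which encodes the acyl-CoA binding protein, read 1001.2, 1146.1 and 998.8 in activated cells, against 488.9 and 471.9 in naive cells. As with Ddit4, activated replicate 2 was the highest array and the naive arrays were close to each other. Dbi rose by 1.10 on the log2 scale (adjusted p = 0.0026), Tbc1d2b by 1.003 (adjusted p = 0.0076) and Lysmd2 by 1.07 (adjusted p = 0.0084). The call of Lysmd2 needed activated replicate 2 (1.02 without it) and naive replicate 2 (0.94 without it), and that of Tbc1d2b needed activated replicate 2 (0.92 without it). Nearest to Tsc22d3 were Reg2, L1cam and Rreb1, at distances of 0.085, 0.093 and 0.095. The adhesion molecule gene L1cam read 51.4, 43.9 and 35.1 in activated cells, against 105.6 and 139.5 in naive cells and fell by 1.22 (adjusted p = 0.0086). The zinc finger factor gene Rreb1 fell by 1.12 (adjusted p = 0.010) and Reg2, a gene known from the pancreas, by 1.22 (adjusted p = 0.011). Each lost its call without naive replicate 2 (-1.04 for L1cam, -0.999 for Rreb1 and -1.11 for Reg2), and Rreb1 and Reg2 also without activated replicate 2 (-1.01 and -1.15). The patterns were compared over 5 arrays in 2 groups, so they mostly reflect the size of the group difference.

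Cell handling can induce both Ddit4 and immediate early genes. Of 15 tested immediate early and heat shock genes, 2 rose and 2 fell, beside 5.52% of all lead probe sets called higher and 3.19% lower. The median log2 difference was -0.05. The fallers numbered 4 without naive replicate 1, and 1 without naive replicate 2, activated replicate 2 or activated replicate 3. Naive replicate 2 stood apart in some genes of this list: Hspa1a read 16.3, 2.2 and 102.9 in activated cells, against 29.6 and 478.7 in naive cells, and Fos read 290.6, 183.9 and 426.0 in activated cells, against 95.2 and 858.0 in naive cells. Nr4a1, which antigen receptor signals induce, rose by 3.91 (adjusted p = 1.7e-05) and Egr1, induced by the same signals, by 2.73 (adjusted p = 1.2e-04). Jun, a subunit of AP-1, read 37.8, 25.5 and 42.0 in activated cells, against 143.3 and 320.1 in naive cells and fell by 2.19 (adjusted p = 0.0020). The stress factor gene Ddit3 fell by 0.68 (adjusted p = 0.045), a call lost on leaving out any one array, at -0.74 to -0.63, and its second probe set lay at 0.42 (adjusted p = 0.38). The part of cell handling in the rise of Ddit4 was not tested.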
